A study of Mus musculus with 14 samples.

Results

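The microRNA (miRNA) let-7 is made in the mouse from many genes, and the hairpins described here are those that lie outside the gene clusters shared with miR-99, miR-100 and miR-125. They were taken by name: mmu-let-7a-1, mmu-let-7f-1, mmu-let-7d, mmu-let-7b, mmu-let-7c-2, mmu-let-7f-2, mmu-mir-98, mmu-let-7g and mmu-let-7i, written below without the prefix for mouse. All 9 were found among the 539 hairpins of the authors' deposited table. The material was small RNA of exosomes, the small vesicles that cells release, from adipose tissue macrophages, the CD11b+F4/80+ phagocytes of fat. The macrophages came from C57BL/6 mice labelled obese or lean, with 7 libraries in each group, and the sources used here do not say how the mice became obese, whether animals were pooled, or how many animals stand behind the libraries. In both groups the macrophages were kept for 72 h in IMDM with 10% exosome-free serum before vesicles were spun out of the medium. The age labels all begin at 24 weeks and their upper value steps by 1 week per library in listing order, from 26 to 32 weeks in the obese group and from 33 to 39 weeks in the lean group. If they hold as written, the ranges of the groups overlap but their upper ends do not, so actual ages are unknown and age and obesity cannot be told apart.

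A let-7 gene is transcribed as a long RNA, from which the enzyme Drosha cuts a hairpin and Dicer a duplex, and the 5p strand of that duplex is loaded into Argonaute. There its seed, bases 2 to 8, pairs with messenger RNAs and lowers their output. Mature let-7 accumulates as cells differentiate, and its best known targets include Ras genes, Hmga2 and Lin28. The LIN28 proteins in turn bind let-7 precursors and block their maturation. In metabolism, let-7 is known for restraining genes of the insulin and IGF pathway, and in macrophages for targets among cytokine and Toll-like receptor genes.

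The mature 5p strands are printed first, because they differ at only a few bases, and let-7f-1 and let-7f-2 make the same one. Sequences are from RefSeq on GRCm38.p6, 9 of 9 hairpins matched by symbol, and the seed is in capitals.
let-7a-5p (from let-7a-1): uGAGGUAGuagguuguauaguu
let-7f-5p (from let-7f-1 and let-7f-2): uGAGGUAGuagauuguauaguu
let-7d-5p: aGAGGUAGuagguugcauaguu
let-7b-5p: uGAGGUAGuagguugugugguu
let-7c-5p (from let-7c-2): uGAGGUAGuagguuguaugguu
miR-98-5p: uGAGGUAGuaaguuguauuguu
let-7g-5p: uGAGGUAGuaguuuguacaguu
let-7i-5p: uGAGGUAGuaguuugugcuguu

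All 9 hairpins carry the seed GAGGUAG, which 13 of the 1738 mature entries of the RefSeq table have. Their 5p strands are 22 bases long and make 8 different sequences, which vary at 7 positions and match at the other 15. With positions counted from 1 at the 5′ end and let-7a-5p as the reference, let-7f-5p has G12A, let-7c-5p has A19G, let-7b-5p has A17G and A19G, and let-7d-5p has U1A and U16C. The strand miR-98-5p has G11A and A19U, and let-7g-5p has G12U and U18C. The most distant from let-7a-5p was let-7i-5p, with G12U, A17G, U18C and A19U. Its nearest relative among the 9 was let-7g-5p, from which it differed at 2 bases, and the farthest was let-7d-5p, at 6. The 3p strands add 1 further overlap, since let-7a-1 and let-7c-2 share the whole 3p strand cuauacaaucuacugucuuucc. The table has 1 row per hairpin, so reads of the 5p and 3p strands are not separated. The rule by which reads that fit several hairpins were assigned is, in the sources used here, not given.

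The hairpins lie at 5 loci, given here by RefSeq and GENCODE M21 on GRCm38. The first locus is on the minus strand of chromosome 13, in exonic sequence of the long noncoding RNA gene 6720427I07Rik, and holds let-7a-1 (chr13:48538179-48538272), let-7f-1 (chr13:48537829-48537917) and let-7d (chr13:48536012-48536114). The annotated miRNA Gm24111 lies over let-7f-1 on the opposite strand, and the sources used here do not give whether counting used strand. On the plus strand of chromosome 15, let-7c-2 (chr15:85706603-85706697) and let-7b (chr15:85707319-85707403) lie in exonic sequence of the noncoding RNA gene Lncppara. On the plus strand of chromosome X, let-7f-2 (chrX:151912346-151912428) and mir-98 (chrX:151913214-151913321) lie in an intron of Huwe1, the gene of a ubiquitin ligase. The remaining 2 hairpins stand alone: let-7g (chr9:106178840-106178927, plus strand) in an intron of Wdr82, and let-7i (chr10:122985640-122985724, minus strand) in an exon of the transcribed pseudogene D630033A02Rik. Within 10 kb of any of the 9, the annotated miRNAs were the members of the same locus and Gm24111.

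The values come from a table of the authors' own comparison of obese and lean libraries, made with the column names of limma, a linear-model package. For each hairpin it holds p-values, a log2 fold change and the mean log2 expression over both groups, and no value for any library, so levels per sample and per group, the depth of each library and whether groups overlap are unknown here. Standard errors and 95% intervals were computed from the deposited fold changes and t. The table does not name its numerator. In published work on this material miR-155 was higher in exosomes of obese macrophages, and mir-155 stands at 4.41 in the authors' deposited table, so a positive value is read here as higher in the obese group and holds only relative to mir-155. A lower level of a miRNA per vesicle and fewer vesicles that carry it cannot be told apart in such bulk RNA. The 7 macrophage miRNAs checked were all in the table, where their mean log2 expression ran from 4.17 (mir-511) to 15.02 (mir-22), by the authors' deposited table. In it mir-155 passed on the positive side and mir-511, at −4.70 (adjusted p = 0.0148 in limma's test), on the negative side, and the other 5 did not pass, mir-142a at −0.46 among them. Of markers for other cells, all copies of the miR-181a and miR-181b hairpins passed on the positive side (4 of 5 lymphocyte hairpins, at 2.57 to 2.75). The remaining lymphocyte hairpin, mir-150, did not pass (0.59, 95% interval −2.49 to 3.67, adjusted p = 0.910 in limma's test). On the negative side mir-365-2 passed (1 of 4 adipocyte hairpins, at −3.75, with its copy mir-365-1 at 0.98 and not past the threshold). None passed among 1 endothelial, 5 mesenchymal, 3 erythrocyte and 1 liver hairpin. Their standard errors were, in that order, 1.91, 0.59 to 1.33, 0.75 to 1.46 and 1.24, so not passing does not show an absence of change. Of all 539 hairpins, 5.57% passed. By the authors' deposited table, mean log2 expression ran from 3.24 (mir-150) to 12.66 for the lymphocyte list, from 0.97 to 14.04 for the adipocyte list, from 0.22 to 6.59 for the mesenchymal list and from 4.15 to 11.81 for the erythrocyte list, with 6.46 for the endothelial mir-126a and 2.15 for the liver miRNA mir-122. The part of other cells in the let-7 values was not tested.

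By level, the let-7 hairpins were among the most abundant miRNAs of these exosomes: all 9 were among the 180 most abundant rows, and 7 were among the 40 most abundant. By the authors' deposited table, the order of mean log2 expression was let-7c-2 (14.02, rank 10 of 539), let-7i (13.51, rank 12), let-7b (12.72), let-7d (11.94), let-7a-1 (11.59), let-7f-2 (11.37), let-7f-1 (11.36), let-7g (10.13, rank 63) and mir-98 (9.71, rank 75). From first to last this is a distance of 4.31 on the log2 scale. The 5p strands are of equal length, but hairpins run from 83 to 108 bases, and whether the values were scaled by length is not given here. The spread of these levels over libraries is not in the table, so no 2 neighbours in the order could be set against their error.

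Of the 9 hairpins, let-7i alone, on the positive side, differed between obese and lean exosomes with an adjusted p below 0.05. In the authors' deposited table that threshold was passed by 5.57% of all 539 hairpins (30, of which 11 were positive, 2.04%). Among the 180 most abundant ones it was passed by 8.89% (16, of which 9 were positive). The share of 1 in 9 (11.1%) was higher than each of these. It rests on 1 hairpin, so it is not read as a result about the let-7 hairpins. Positive fold changes numbered 8 of 9, beside 122 of the 180 most abundant hairpins (67.8%) and 284 of 539 overall (52.7%). The median log2 fold change of the 9 was 0.57, beside 0.34 for the 180 most abundant hairpins and 0.09 for all, by the authors' deposited table. Before adjustment, let-7i and let-7g had p below 0.05, 2 of 9 (22.2%). That was so for 17.6% of all hairpins, for 8.53% on the positive side, and for 17.8% of the 180 most abundant ones on the positive side.

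**Figure D1:**
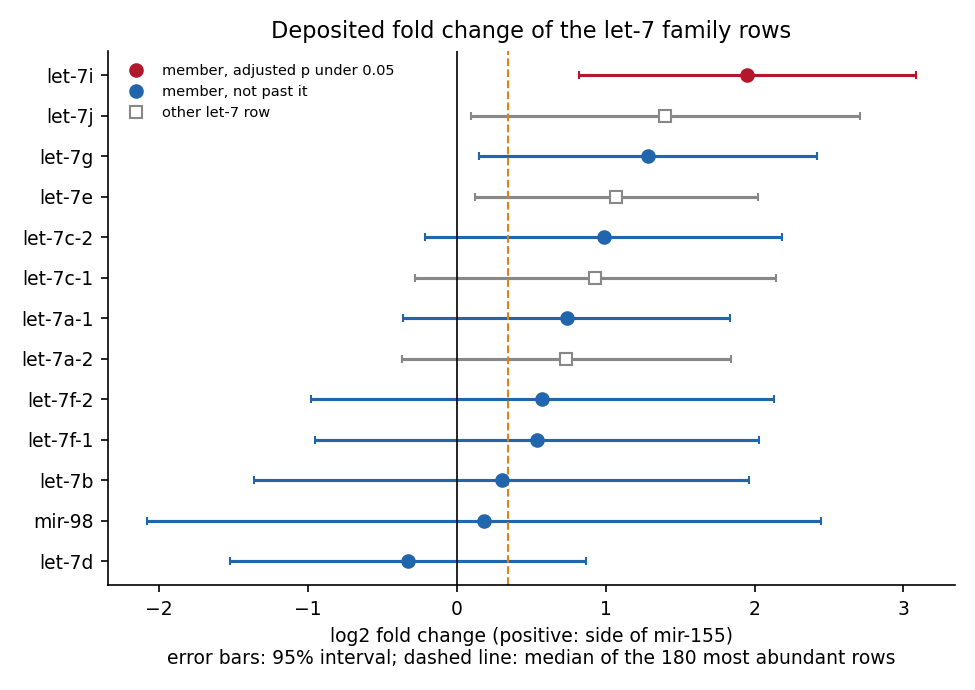
Log2 fold change (x axis) of the 13 let-7 family rows of the authors' deposited table (y axis), with 95% intervals as bars; filled circles are the 9 hairpins described here, open squares the other let-7 rows, the solid line is 0 and the dashed line the median of the 180 most abundant hairpins (0.34). The interval of let-7i runs from 0.82 to 3.09 and lies right of both lines, whereas 7 of the 9 intervals include 0.

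The hairpin of let-7i, with its 5p strand in capitals, is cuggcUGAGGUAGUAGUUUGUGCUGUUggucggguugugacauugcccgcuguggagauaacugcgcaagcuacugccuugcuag. It is shown because it is the member that passed. Its log2 fold change in the authors' deposited table was 1.95 (3.87-fold), with a standard error of 0.54, a 95% interval from 0.82 to 3.09 and an adjusted p of 0.0383 in limma's test. It was the 28th of the 30 called hairpins in order of p. The call depended on where fold changes are centred. Shifting all fold changes so that the median hairpin stands at 0 moved let-7i to 1.86 and its adjusted p to 0.0512, and centring on the 180 most abundant hairpins gave 1.61 and 0.0977. The latter centring also changed the split of all calls from 11 positive and 19 negative to 8 and 25.

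**Figure D2:**
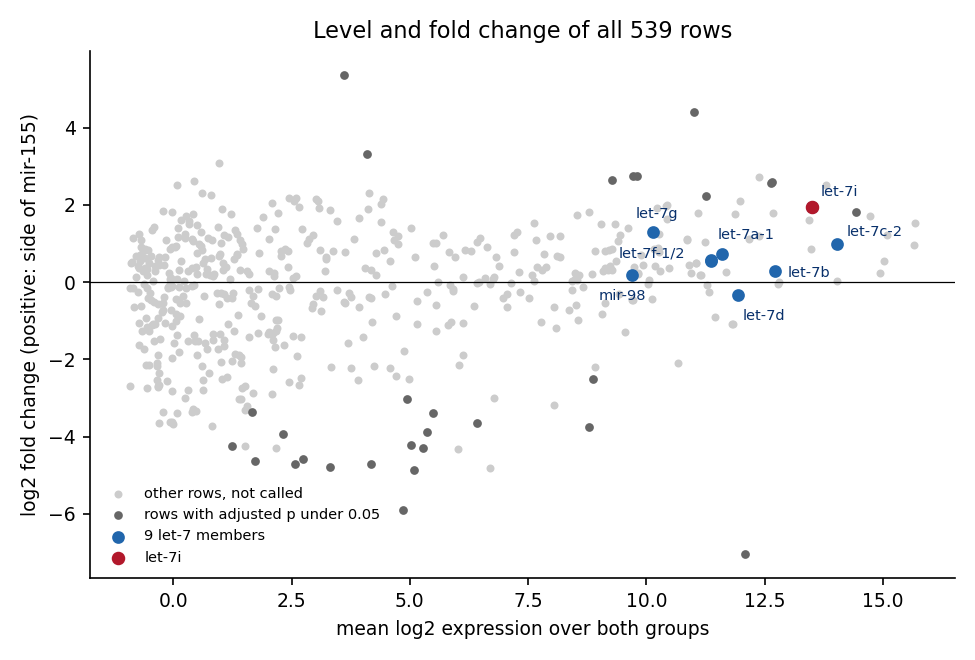
Mean log2 expression over both groups (x axis) against log2 fold change (y axis) for the 539 rows of the authors' deposited table, with the 9 let-7 hairpins in blue, let-7i in red and other rows with an adjusted p under 0.05 in dark grey. The let-7 hairpins lie at 9.71 or higher on the x axis and between −0.33 and 1.95 on the y axis, inside the cloud of other abundant rows.

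The nearest relative of let-7i among the 9 by sequence, let-7g, came second. Its log2 fold change in the authors' deposited table was 1.28 (2.44-fold, standard error 0.54, 95% interval 0.15 to 2.42), with an unadjusted p of 0.0287 and an adjusted p of 0.201 in limma's test, so it did not pass. The standard errors of let-7i and let-7g were both 0.54. Their log2 fold changes lay 0.67 apart, and their intervals overlapped. A test of that difference needs values per library and was not made. The same holds for every difference between hairpins given here.

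A further row, let-7j, is outside the 9 but bears on let-7i. This is a let-7-like hairpin of another locus, on chromosome 3, whose mature strand is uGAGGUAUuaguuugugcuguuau, and its seed positions are in capitals. Over the first 22 bases it differs from let-7i-5p at 1 base, G8U, which takes it out of the let-7 seed group. In the authors' deposited table let-7j stood at 1.40 (95% interval 0.09 to 2.71, adjusted p = 0.245), on the same side as let-7i, with a mean log2 expression of 9.62 against 13.51. The sources used here do not give the number of mismatches that the alignment allowed, and whether reads of let-7i enter the row of let-7j was not tested.

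The 3 hairpins of the chromosome 13 locus, which overlap exons of 1 host gene, had different estimates, with no test of the differences. In the direction of transcription let-7a-1 comes first, at a log2 fold change of 0.74 (95% interval −0.36 to 1.84, adjusted p = 0.494) in the authors' deposited table. Then let-7f-1, 355 bases on, was at 0.54 (−0.95 to 2.03, adjusted p = 0.752), and let-7d, 2158 bases on, was at −0.33 (−1.52 to 0.87, adjusted p = 0.850). None of the 3 passed limma's test. The hairpin let-7d was the only one of the 9 on the negative side, and the only one whose interval leaves out a 2-fold positive change (a log2 fold change of 1). The distance between let-7a-1 and let-7d was 1.07 on the log2 scale and their intervals overlapped.

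At the chromosome 15 locus let-7c-2, the most abundant of the 9, had a log2 fold change of 0.99 (95% interval −0.21 to 2.19, adjusted p = 0.395) in the authors' deposited table. Its neighbour let-7b, 716 bases on, was at 0.30 (−1.36 to 1.96, adjusted p = 0.913). On chromosome X let-7f-2 was at 0.57 (−0.98 to 2.13, adjusted p = 0.739), and mir-98, 868 bases on, at 0.18 (−2.08 to 2.45, adjusted p = 0.961), in the authors' deposited table. None of these 4 passed limma's test. In each locus of several hairpins the first in transcription had the most positive value and the last the least, with overlapping intervals throughout. The 3 first hairpins, and let-7f-1, make a 5p strand that a copy on another chromosome also makes, so these values may not belong to the locus alone. After centring on the 180 most abundant hairpins, let-7b and mir-98 turned negative, to −0.040 and −0.16, and 6 of 9 hairpins were positive.

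**Figure D3:**
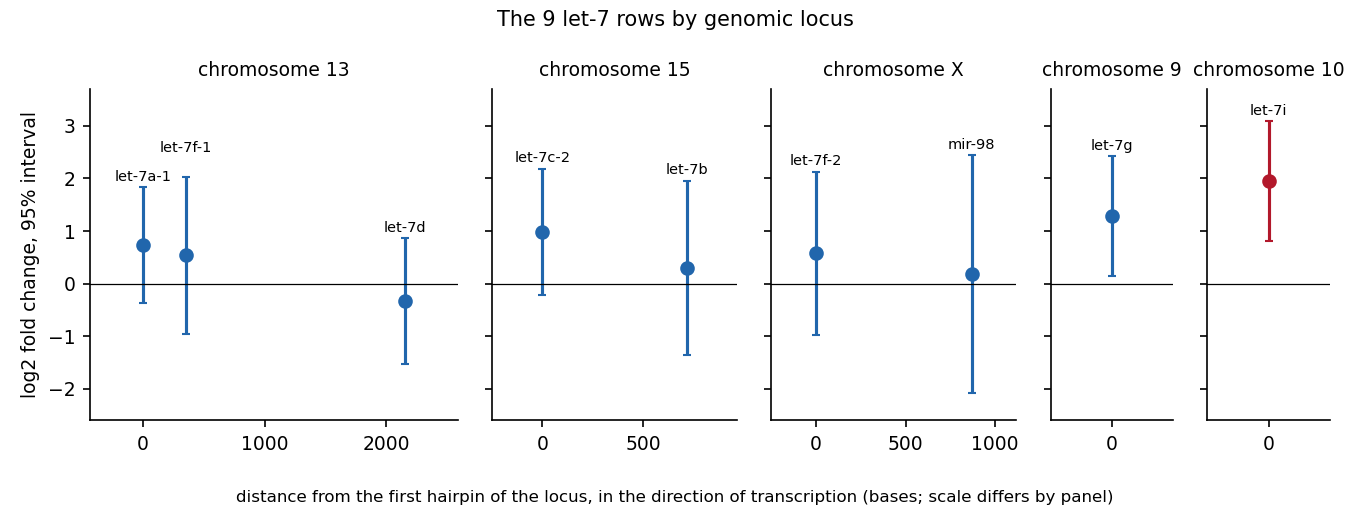
Log2 fold change with 95% interval (y axis) of the 9 let-7 hairpins against distance in bases from the first hairpin of each locus, in the direction of transcription (x axis, 1 panel per chromosome, scale differing by panel); let-7i is in red. Values go from 0.74 to −0.33 along chromosome 13, from 0.99 to 0.30 along chromosome 15 and from 0.57 to 0.18 along chromosome X, and the intervals overlap within each panel.

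Among the let-7 rows, hairpins that make the same mature strand had nearly the same values. This was not particular to let-7. In the authors' deposited table mir-26a-1 and mir-26a-2 stood at 0.48 and 0.50, and mir-103-1 and mir-103-2 at 1.09 and 1.11. Other copies lay apart, such as mir-29b-1 and mir-29b-2 (−3.66 and −0.54), and mir-365-1 and mir-365-2 given above. Whether the let-7 copies share reads cannot be read from the table, so they are not counted as independent. The copies let-7f-1 and let-7f-2, on different chromosomes, lay 0.03 apart in log2 fold change and 0.02 apart in mean log2 expression, by the authors' deposited table. Across to the miR-99 and miR-125 clusters, let-7a-1 lay 0.003 from let-7a-2 (0.74) in fold change, and let-7c-2 lay 0.06 from let-7c-1 (0.93), in the authors' deposited table. Counted by different 5p strand, the 9 rows make 8 sets, with a median log2 fold change of 0.65 (the let-7f copies averaged). By contrast let-7a-1 and let-7c-2, which share the 3p strand but differ by A19G in the 5p strand, lay 2.43 apart in mean log2 expression, at 11.59 and 14.02.

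The let-7 genes inside the clusters gave values in the same range. Besides let-7a-2 and let-7c-1, let-7e was at 1.07 in the authors' deposited table (95% interval 0.12 to 2.02, adjusted p = 0.202), and 0 of 3 passed limma's test, with 1 of 3, let-7e, at an unadjusted p under 0.05. Of their 6 cluster partners all were positive and 0 passed limma's test, from 0.42 for mir-125b-1 to 1.79 for mir-99b (adjusted p = 0.115), with 2 of 6 at an unadjusted p under 0.05, in the authors' deposited table. The hairpins let-7k and mir-1961, which also carry the let-7 seed in RefSeq, have no row among the 539.

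The size of fold change at which a row reaches a given t is its standard error times that t. By construction it rises with the standard error. Standard errors of the 9 log2 fold changes ran from 0.52 (let-7a-1) to 1.08 (mir-98), with a median of 0.57, beside 0.76 for the 180 most abundant hairpins and 0.97 for all. The smallest absolute t that was called in the authors' deposited table was 3.53, and the largest that was not called was 3.37 (mir-28a). The limit for a call lies between them, so sizes computed from 3.53 are upper bounds. At its own standard error a hairpin would need a log2 fold change of 1.91 (let-7i and let-7g) to reach it, 1.85 for let-7a-1, 2.79 for let-7b and 3.81 for mir-98. The value of let-7i, 1.95, was just above its mark. Of the 8 hairpins that were not called, 6 would have needed more than 2, a 4-fold change, and the intervals of mir-98 and let-7b, given above, include a 2-fold difference in either direction.

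**Figure D4:**
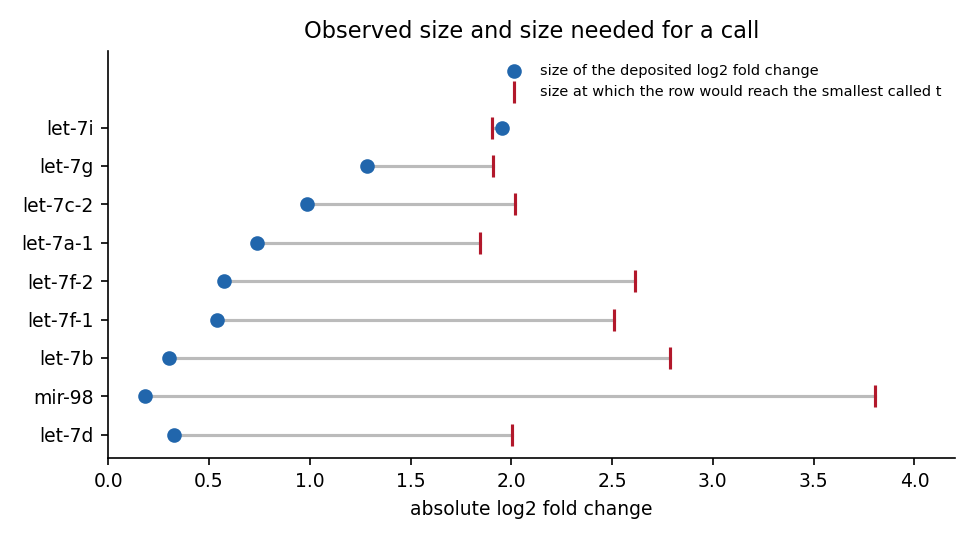
Absolute log2 fold change of each of the 9 let-7 hairpins in the authors' deposited table (blue points; let-7d is negative, the others positive) and the size at which the row, with its own standard error, would reach the smallest called t of 3.53 (red marks). By construction a point reaches its mark exactly where the row was called, here for let-7i alone (1.95 against 1.91). The point of mir-98 is farthest from its mark (0.18 against 3.81).

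The precursors also differ in the letters that LIN28 is known to bind. The motif GGAG, searched on the hairpin's own strand, occurs between the 5p and 3p strands of 6 of the 9 hairpins and is not found in let-7b, let-7c-2 and mir-98. Of all 1005 RefSeq hairpins, 44.5% hold these letters anywhere. Fold changes of the 6 ran from −0.33 (let-7d) to 1.95 (let-7i) and those of the other 3 from 0.18 (mir-98) to 0.99 (let-7c-2) in the authors' deposited table, so the ranges overlap.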

How the data were processed

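Exosomal small RNA of 7 obese and 7 lean macrophage libraries was compared in 1 table. Trimmomatic 0.30, Novoalign, edgeR, limma, FastQC and MultiQC are listed, with no roles, per the submitters' processing notes. Build, miRNA annotation, normalization and filters are, in the sources used here, not given. The authors' deposited fold changes and expression means are log2 values. The deposited t is a score (limma's moderated t), its p-values come unadjusted and adjusted, and B is a natural log of odds. These readings, and the log2 scale, follow limma's use of the column names, which do not state them. Adjusting the deposited p over 539 rows by Benjamini-Hochberg gave the deposited adjusted p (largest difference 1.46e-14). From t and p, 17.9 degrees of freedom were recovered; a standard error is the fold change over t, and intervals (95%) rest on those degrees of freedom. A call is an adjusted p under 0.05. These steps were tested on simulated normal values fitted without observation weights, so the test did not cover weighted rows. In the deposited table B does not follow the size of t, as it would if all rows had equal weights, so the rows' unscaled errors differed, as observation weights make them.

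The design assumed values per library; the table has 0 such columns, so the authors' test stands. Since separate animals are not stated, p-values cover only the spread among these libraries, which may be technical, and depth is unknown. Members and lists were chosen with earlier results of these data known; the rule for names takes all 9 members, the other mouse let-7 hairpins and any with their seed, the miR-99, miR-100 and miR-125 partners, neighbours within 10 kb, mir-155 and lists of cell type markers. Hairpins were matched to RefSeq and GENCODE M21 by symbol. Alternatives were thresholds, centring, filters, copies and adjustment. Python 3.11.15, pandas 2.3.3 and scipy 1.17.1 were used.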

Additional observations from a re-analysis of the deposited data

How the results depend on the processing

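The number of the 9 let-7 hairpins called was 1 with an adjusted p under 0.1, with a log2 fold change of at least 1, among the 244 hairpins with a mean log2 expression of at least 3, among the 270 at or above the median, and with 1 hairpin per stem (508 hairpins, with 7 of the 9, since let-7c-1 and let-7f-2 stood for let-7c and let-7f). It was 0 after recentring by the median of all hairpins or of the 180 most abundant, and 0 with the Benjamini-Yekutieli adjustment. The log2 fold change of let-7i was then 1.86 (adjusted p = 0.0512) and 1.61 (0.0977) after the respective recentring, and its adjusted p was 0.263 with Benjamini-Yekutieli, which called 13 hairpins in all. Over all these alternatives its adjusted p ran from 0.0211 to 0.263. Recentring by the 180 most abundant reversed let-7b to −0.040 and mir-98 to −0.16. The other 8 hairpins passed under none of the alternatives they entered, which for let-7c-2 and let-7f-1 leaves out the 1 per stem. No paired analysis was possible because no library has values of its own in the table. For the same reason leaving out each library, another tool, normalization or pseudocount were not run. All alternatives were planned, with earlier results of these data known.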
